A study of Homo sapiens with 32 samples.

Results

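Nascent transcription of 10 genes for plasma proteins of the acute phase response was followed through exit from mitosis in HUH7, a long-established line of human hepatoma cells. The genes were chosen by symbol: the fibrinogen chain genes FGA, FGB and FGG, the haptoglobin gene HP, the orosomucoid genes ORM1 and ORM2, the fetuin-A gene AHSG, and ITIH2, ITIH3 and ITIH4, which encode heavy chains of the inter-alpha-trypsin inhibitor family. They are 10 of 24242 genes with a symbol in the deposited table, where they have 15 transcripts with 12 distinct sets of values. A gene's level was the mean over its distinct sets.

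Cells had been synchronised with 2 mM thymidine for 24 hours, freed from it for 2 hours, arrested in mitosis with 0.06 ug/mL of the microtubule poison nocodazole for 16 hours, shaken off, washed and replated. New RNA was marked for 40 minutes with 0.5 mM 5-ethynyl uridine (EU), a uridine analogue that can be linked to biotin and captured. The groups were 0, 40, 80, 105, 165 and 300 minutes of release from nocodazole, and an asynchronous culture that received neither block. The sources used here do not say whether a stated time is when the pulse began or when it ended. In either case the 80 and 105 minute groups are less than 40 minutes apart, so their labelling windows overlap. Each of the 7 groups has 3 samples in the labels, but the table holds 1 value per group. How the samples were joined is not stated, and the values are called pooled here only for that reason. There is therefore no replicate error, no replicate check and no test behind any difference, and "higher" and "lower" compare single pooled values. No capture background stands beside the values, because the groups without EU and those with spike-in RNA have no column of their own here. Whether the 0 minute and asynchronous columns also draw on the spike-in samples is not stated.

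The acute phase response is the change in liver secretion that follows infection or injury. Interleukin 6 and interleukin 1 act on hepatocytes through STAT3, NF-kB and C/EBP factors, raising the genes of positive acute phase proteins such as fibrinogen, haptoglobin and orosomucoid. Negative acute phase proteins, albumin and fetuin-A among them, fall. The fibrinogen genes lie side by side on chromosome 4 and are transcribed almost only in hepatocytes, under C/EBP factors as well as interleukin 6. Their products assemble into the soluble protein that thrombin turns into the fibrin of a clot.

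The regions before the start of the fibrinogen genes are shown because these genes had the highest levels of the group and shared a high value at 40 minutes and a lower one at 80 minutes. The sequences are the 250 bases before each start in RefSeq (GRCh38.p14), 5′ to 3′ on the gene's own strand. Capitals mark matches on either strand to short motifs that were searched for. The interleukin 6 or STAT type motifs were CTGGGAA and TTNNNGAA. The C/EBP type motif was TTGCNNAA. The TATA box was searched for as the letters TATAAA. FGA and FGG are on the minus strand, at chr4:154590743-154590992 and chr4:154612657-154612906, and FGB is on the plus strand at chr4:154562730-154562979.
FGA: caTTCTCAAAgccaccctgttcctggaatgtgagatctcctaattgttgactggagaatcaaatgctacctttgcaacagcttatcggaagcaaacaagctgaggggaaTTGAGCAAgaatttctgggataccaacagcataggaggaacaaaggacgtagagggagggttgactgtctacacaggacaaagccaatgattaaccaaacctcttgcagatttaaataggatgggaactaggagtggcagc
FGB: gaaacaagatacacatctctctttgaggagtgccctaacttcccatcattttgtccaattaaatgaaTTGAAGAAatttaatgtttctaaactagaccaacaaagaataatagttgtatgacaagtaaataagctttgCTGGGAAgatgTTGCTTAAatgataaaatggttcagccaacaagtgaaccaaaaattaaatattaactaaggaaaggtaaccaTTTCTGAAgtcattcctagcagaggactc
FGG: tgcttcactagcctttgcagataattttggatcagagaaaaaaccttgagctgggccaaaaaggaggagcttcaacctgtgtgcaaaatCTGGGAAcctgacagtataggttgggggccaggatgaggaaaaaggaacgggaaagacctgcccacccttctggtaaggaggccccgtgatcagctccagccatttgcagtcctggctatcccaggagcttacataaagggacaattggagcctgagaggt

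FGA and FGB each held a TTGCNNAA match, on the minus strand at bases -141 to -134 from the start in FGA and on the plus strand at -101 to -94 in FGB. CTGGGAA was found on the plus strand in FGB at -112 to -106 and in FGG at -161 to -155. TTNNNGAA was found once in FGA, on the minus strand at -248 to -241, and in FGB on the plus strand at -183 to -176 and -29 to -22. No match overlapped another in these regions, and no TATAAA was found in them. The search covered windows from 250 bases before to 50 bases after the start, and 7 of the 10 genes had a window: FGA, FGB, FGG, ORM1, AHSG, ITIH3 and ITIH4. HP, ORM2 and ITIH2 are named only. CTGGGAA was in 4 of the 7 windows and in 10.9% of 23730 promoter windows of the table's genes. TTNNNGAA was in 3 of 7 and in 30.6% of all windows, TTGCNNAA in 3 of 7 and 8.81%, and TATAAA in 1 of 7, that of ORM1, and 9.28%. These are matches of letters and not sites of binding.

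FPKM are by name fragments per kilobase, scaled to a read total, and so allow levels to be compared between genes per length. The read total behind the deposited values is not stated, so their absolute size has no known unit. Folds are ratios of FPKM + 1, and a gene was counted as higher or lower at 2-fold or more. Shares over all genes refer to the 22940 genes that reached 1 FPKM in 3 groups or more, among them 9 of the 10 acute phase genes. ITIH3 was left out by that filter. Summed over all transcripts, the levels came to between 6.24e+06 FPKM at 0 minutes and 1.06e+07 at 105 minutes, with 8.80e+06 in the asynchronous culture. Low values repeated in steps, from which depth relative to 0 minutes was 1.15 to 1.75 in the later release groups and 1.87 in the asynchronous culture. All 10 hepatocyte markers, with ALB, AFP, APOA1, APOB, TTR, SERPINA1, TF, HNF4A and FOXA2 in the list, were among the kept genes. Their summed level was between 2120 FPKM at 0 minutes and 5300 at 165 minutes over the release, and 16000 FPKM in the asynchronous culture. Blood markers summed to between 188 and 267 FPKM over the release and 420 FPKM in the asynchronous culture, with HBB at 0 in every group but 40 minutes and LYZ alone at 364.2 FPKM in the asynchronous culture. Stroma and endothelium markers summed to between 76.6 and 139 FPKM over the release and 64.2 FPKM in the asynchronous culture. The part of these lists in the results was not tested. In bulk cultures, fewer cells transcribing a gene and less RNA of it per cell cannot be told apart.

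FGA encodes the Aα chain, whose fibrinopeptide is cut by thrombin. Its level was 534.7 FPKM at 0 minutes, 1197 at 40, 161.1 at 80, 123.9 at 105, 288.9 at 165 and 684.8 at 300 minutes, and 3502 FPKM in the asynchronous culture. The release values thus had a peak at 40 minutes, a trough at 80 to 105 minutes and a second climb to 300 minutes, with the highest 9.66 times the lowest. FGA was 2.32-fold higher at 165 against 105 minutes (log2 ratio 1.21) and had a log2 ratio of 1.24 at 300 against 165 minutes. Its range over the release was the widest among the 9 genes, and the peak was 34.2% of the asynchronous level.

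FGB encodes the Bβ chain, which carries the other fibrinopeptide. Its level was 762.5 FPKM at 0 minutes, 1150 at 40, 547.3 at 80, 530.3 at 105, 483.8 at 165 and 564.5 at 300 minutes, and 2688 FPKM in the asynchronous culture. It shared the high value at 40 minutes but stayed within 484 to 565 FPKM afterwards, and its highest release value was 2.38 times its lowest.

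FGG encodes the γ chain, which holds sites for fibrin polymerisation and for platelets. Its level was 566.6 FPKM at 0 minutes, 796.7 at 40, 281.0 at 80, 344.5 at 105, 446.0 at 165 and 507.0 at 300 minutes, and 2051 FPKM in the asynchronous culture. From 80 to 300 minutes each value was above the one before. In all 3 fibrinogen genes every release value was below the asynchronous one, which was 2.34 to 2.93 times the highest release value. By asynchronous level they stood at places 67 (FGA), 115 (FGB) and 212 (FGG) of 22940 genes.

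The fibrinogen genes did not keep a fixed proportion to one another. FGB was the highest of them at 0 minutes, FGA by a small margin at 40 minutes, FGB at 80, 105 and 165 minutes, and FGA at 300 minutes and in the asynchronous culture. Over the 6 release groups Pearson's r on log2(FPKM + 1) was 0.94 for FGA with FGG, 0.81 for FGB with FGG and 0.76 for FGA with FGB. Values of that size were not particular to the fibrinogen pairs: FGB had 0.85 with HP, 0.84 with ITIH2 and 0.82 with ITIH4, HP had 0.93 with ITIH2, and ITIH2 had 0.85 with ITIH4. ORM1 with ORM2, whose reads may be shared, had 0.66. These are descriptions over 6 points that share their columns.

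**Figure D1:**
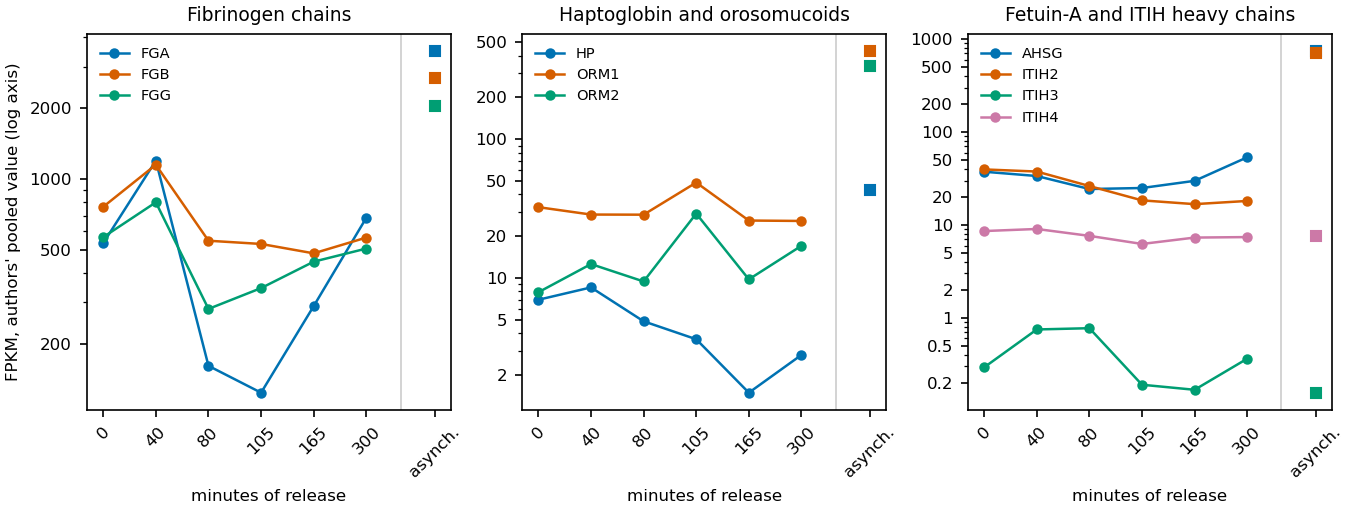
Authors' pooled FPKM on log axes for the 10 genes by minutes of release (circles, categories not drawn to scale) and in the asynchronous culture (squares); single values with no error. The fibrinogen genes have their highest release value at 40 minutes, and 8 of the 10 genes have a square above every circle; ITIH3 and ITIH4 do not.

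HP encodes haptoglobin, which binds free haemoglobin. Its level was 6.974 FPKM at 0 minutes, 8.559 at 40, 4.878 at 80, 3.622 at 105, 1.492 at 165 and 2.793 at 300 minutes, and 42.79 FPKM in the asynchronous culture. It was low throughout, with its lowest value at 165 minutes and an asynchronous level 5.0 times its highest release value. If a step is 1 read, the HP release values rest on about 4 to 16 reads. HP and its neighbour HPR share 95.2% of 943 aligned transcript bases. The HP sequence aligned had 960 bases, and introns were not compared. Reads of HP and HPR may be divided between them, and both values are uncertain. HPR, which encodes a haptoglobin-related plasma protein, had 6.584 FPKM at 0 minutes, 7.914 at 40, 9.442 at 80, 9.446 at 105, 5.121 at 165 and 4.605 at 300 minutes, and 34.96 FPKM in the asynchronous culture.

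ORM1 and ORM2 encode the orosomucoids, or alpha-1-acid glycoproteins, which carry drugs and other small molecules in plasma. ORM1 had 32.41 FPKM at 0 minutes, 28.67 at 40, 28.61 at 80, 48.76 at 105, 25.96 at 165 and 25.78 at 300 minutes, and 433.6 FPKM in the asynchronous culture. ORM2 had 7.898 FPKM at 0 minutes, 12.61 at 40, 9.448 at 80, 29.14 at 105, 9.785 at 165 and 17.08 at 300 minutes, and 337.7 FPKM in the asynchronous culture. Both had their highest release value at 105 minutes, a time at which the fibrinogen genes were near their lowest. The 2 transcripts are 95.9% identical over 760 aligned bases with a longest identical run of 242 bases. Introns were not compared. Reads of one may be counted in the other. At 105 against 80 minutes ORM2 was 2.88-fold higher (log2 ratio 1.53) and ORM1 1.68-fold higher (0.75). At 165 against 105 minutes ORM2 was 2.79-fold lower and ORM1 1.85-fold lower. If a step is 1 read, the ORM2 release values rest on about 7 to 37 reads and those of ORM1 on about 27 to 62. The asynchronous levels were 11.6 times the highest release value for ORM2 and 8.89 times for ORM1.

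AHSG encodes fetuin-A, a negative acute phase glycoprotein that keeps calcium phosphate in solution. Its level was 37.34 FPKM at 0 minutes, 33.58 at 40, 24.32 at 80, 24.94 at 105, 29.79 at 165 and 53.40 at 300 minutes, and 746.6 FPKM in the asynchronous culture. The values formed a shallow trough at 80 to 105 minutes with the highest release value at 300 minutes, and the asynchronous level was 14.0 times that value.

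ITIH2 encodes a heavy chain that is joined to bikunin and passed on to hyaluronan. Its level was 39.53 FPKM at 0 minutes, 37.51 at 40, 26.19 at 80, 18.36 at 105, 16.72 at 165 and 18.10 at 300 minutes, and 713.2 FPKM in the asynchronous culture. It started beside AHSG at 0 minutes, and its values declined to 165 minutes without a later climb of that size. The asynchronous level was 18.0 times the highest release value, the widest such gap of the group.

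ITIH4 encodes a heavy chain that does not bind bikunin and is raised by interleukin 6. Its level was 8.583 FPKM at 0 minutes, 9.035 at 40, 7.618 at 80, 6.234 at 105, 7.302 at 165 and 7.392 at 300 minutes, and 7.619 FPKM in the asynchronous culture. It was the one gene of the 9 whose release values lay on both sides of the asynchronous level, between 81.8% and 119% of it. ITIH3, another heavy chain gene, was at 0.2928, 0.7491, 0.773, 0.1904, 0.168 and 0.3632 FPKM at 0, 40, 80, 105, 165 and 300 minutes, and 0.1563 FPKM in the asynchronous culture. These values correspond to about 1 to 4 steps, so no fold is given for it.

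Expressed against the asynchronous level, the release values covered a wide range. The fibrinogen genes reached 34.2% (FGA), 42.8% (FGB) and 38.8% (FGG) of it at 40 minutes and 19.6%, 21.0% and 24.7% at 300 minutes. HP stood between 3.49% and 20.0%, ORM1 between 5.95% and 11.2%, and ORM2 between 2.34% and 8.63%. AHSG stood between 3.26% and 7.15% and ITIH2 between 2.34% and 5.54%. The order of asynchronous levels was FGA, FGB, FGG, AHSG, ITIH2, ORM1, ORM2, HP, ITIH4 and ITIH3. Without a spread over samples, it cannot be said which neighbours in that order differ.

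Levels at 0 minutes were set against the asynchronous culture to see how far these genes were labelled at or near the mitotic block. Of the 9 genes, 0 were higher by 2-fold or more and 8 were lower, against 14.1% higher and 19% lower among all genes. ORM2 was 38.1-fold lower (log2 ratio -5.25), AHSG 19.5-fold, ITIH2 17.6-fold, ORM1 13.0-fold, FGA 6.54-fold, HP 5.49-fold, FGG 3.62-fold and FGB 3.52-fold lower. ITIH4, at 8.583 against 7.619 FPKM, was 1.11-fold higher, a difference that turned to -0.39 on the log2 scale after quantile normalization. The median log2 ratio of the 9 genes was -2.71 and that of all genes -0.14. The differences of the 8 genes stayed at 2-fold or more under every alternative run in which the gene was kept.

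At 40 against 0 minutes, the first step of release, 1 of the 9 genes was higher by 2-fold or more and 0 were lower, against 3.24% higher and 2.05% lower among all genes. The gene was FGA, 2.24-fold higher (log2 ratio 1.16), which came to 0.74 after quantile normalization and 0.97 with equal sums of FPKM times gene span, both under 2-fold. ORM2 was 1.53-fold higher, FGB 1.51-fold and FGG 1.41-fold. The 3 fibrinogen genes were above 1 under every alternative run. AHSG, ITIH2 and ORM1 were 1.05-fold to 1.13-fold lower, and the median log2 ratio was 0.26 for the 9 genes and 0.10 for all.

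At 80 against 40 minutes, 0 of the 9 genes were higher by 2-fold or more and 3 were lower, all of them fibrinogen genes, against 13.5% higher and 2.72% lower among all genes. FGA was 7.39-fold lower (log2 ratio -2.89), which placed it 72nd from the lowest of 22940 genes. FGG was 2.83-fold lower (-1.50) and FGB 2.10-fold lower (-1.07). All 9 genes lay below the median of all genes, which was 0.18, with a median of -0.50 for the 9. Of the others HP had the lowest log2 ratio, -0.70, and ORM1 was level at 28.61 against 28.67 FPKM. The 3 fibrinogen genes stayed at least 2-fold lower under every alternative run, but the shares over all genes moved with the scaling: 7.26% were higher and 5.03% lower with equal medians, 6.12% and 4.69% after quantile normalization, and 6.21% and 6.11% with equal sums. This comparison shares the 40 minute column with the one before, so a high value there enters both.

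At 300 against 0 minutes, the whole span of release, 1 gene was higher by 2-fold or more and 2 were lower, against 18.9% higher and 8.82% lower among all genes. ORM2 was 2.03-fold higher, HP 2.10-fold lower and ITIH2 2.12-fold lower, and each of these folds was under 2 in at least 1 alternative run. If a step is 1 read, HP rests on about 11 reads at 0 minutes and 7 at 300 minutes, and ORM2 on about 7 and 24. FGA was 1.28-fold higher, a direction that was turned by equal medians (-0.02), quantile normalization (-0.22) and equal sums (-0.29). AHSG was 1.42-fold higher, turned by equal sums (-0.13). FGB was 1.35-fold lower (log2 ratio -0.43), and past 2-fold after quantile normalization (-1.04) and with equal sums (-1.08). FGG was 1.12-fold lower (-0.16), and lower still in both of these settings (-0.81 each). The median log2 ratio was -0.19 for the 9 genes and 0.21 for all.

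At 300 minutes against the asynchronous culture, 0 of the 9 genes were higher by 2-fold or more and 8 were lower, against 9.84% higher and 8.57% lower among all genes. ITIH2 was 37.4-fold lower (log2 ratio -5.22), which placed it 41st from the lowest. ORM2 was 18.7-fold, ORM1 16.2-fold, AHSG 13.7-fold, HP 11.5-fold, FGA 5.11-fold, FGB 4.76-fold and FGG 4.04-fold lower, and ITIH4 had a log2 ratio of -0.04. The median was -3.53 for the 9 genes and 0.11 for all. This comparison shares the asynchronous column with that of 0 minutes.

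**Figure D2:**
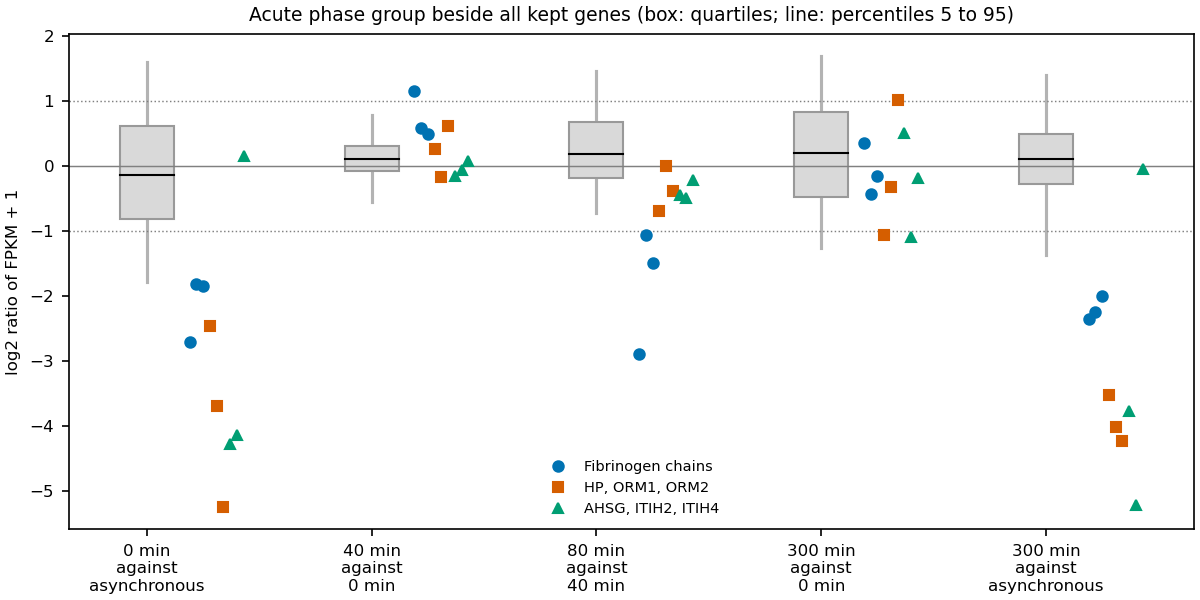
Log2 ratio of FPKM + 1 in 5 comparisons for the 9 kept genes (symbols by role) beside all 22940 kept genes (box for quartiles, black line for the median, grey line for percentiles 5 to 95); dotted lines mark 2-fold. The fibrinogen genes lie lowest at 80 against 40 minutes, and 8 genes lie below -1 against the asynchronous culture at both 0 and 300 minutes.

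FGA and FGG each have a shorter and a longer transcript with separate values. Both were taken to run from the same start, which gave the level over the 3′ part alone. The longer FGA transcript encodes the extended αE chain, and the shorter FGG transcript the γ′ chain. In the table, transcripts with the same ends mostly had the same value: of 643 genes with such a pair differing by at least 100 bases of exon, 94.7% had identical values. A value was therefore treated as covering the whole span of a transcript, introns included. The lengths run from the start of the gene in RefSeq to the 3′ end of each transcript in GENCODE (both GRCh38).

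The FGA part of 2134 bases past the shorter end was at 305.3 FPKM at 0 minutes, 461.2 at 40, 116.9 at 80, 100.4 at 105, 198.8 at 165 and 337.1 at 300 minutes, and 2511 FPKM in the asynchronous culture. The span of 5483 bases before it was at 572.1, 1317, 168.3, 127.7, 303.6 and 741.5 FPKM at those times, and 3664 FPKM in the asynchronous culture. Relative to that span the part was at 53.4% at 0 minutes, 35.0% at 40, 69.4% at 80, 78.6% at 105, 65.5% at 165 and 45.5% at 300 minutes, and 68.5% in the asynchronous culture. The share was lowest at 40 and 300 minutes, where FGA was highest over the release, and highest in the trough. The level of the shorter span is the divisor of the share and also enters the FGA level. Share and level are therefore not independent, and an opposite course is partly built in.

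The FGG part, of 442 bases, was at 51.1% of the level before it at 0 minutes, 60.0% at 40, 52.0% at 80, 75.2% at 105, 75.4% at 165 and 69.1% at 300 minutes, and 102% in the asynchronous culture. It did not have its lowest share at 40 minutes as FGA did. If a step is 1 read, the FGA part rests on about 81 to 294 reads over the release and the FGG part on about 24 to 64. These shares describe where along the gene the captured RNA lay, and do not measure how often each protein form is made.

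**Figure D3:**
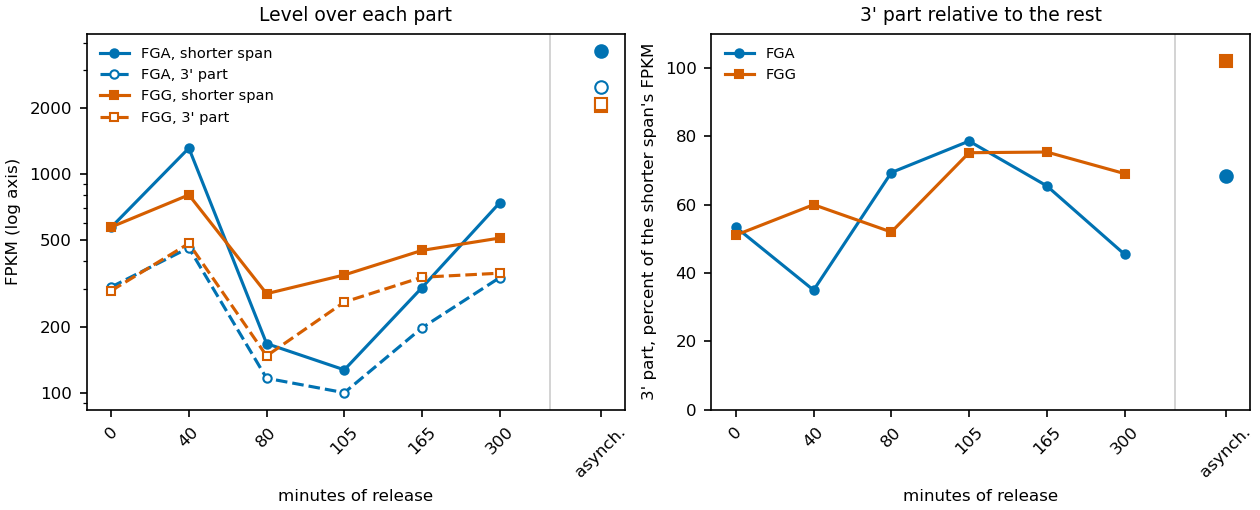
Left, FPKM (log axis) over the shorter span (filled) and the 3′ part beyond it (open) of FGA and FGG by minutes of release and in the asynchronous culture; right, the 3′ part as a percent of the shorter span. The FGA share is lowest at 40 minutes (35.0%) and highest at 105 minutes (78.6%), and the FGG share is highest in the asynchronous culture (102%).

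Other genes of the response were taken from lists by role. Of 26 genes listed as other positive acute phase genes, 24 were measured and kept, and APCS and AGT were not analysed here. Membership was not checked for the human response, and A2M, for one, may not be raised in it. C4A and C4B are near-identical copies whose reads may be shared. At 0 minutes against the asynchronous culture 3 were past 2-fold upwards and 7 downwards (14.1% and 19% of all genes), and the median log2 ratio was -0.18 beside -0.14 for all genes. At 40 against 0 minutes 0 were past 2-fold in either direction (3.24% and 2.05% of all genes), and at 80 against 40 minutes 0 were higher and 2 lower (13.5% and 2.72%). At 300 against 0 minutes 3 were higher and 6 lower (18.9% and 8.82% of all genes), with a median of -0.26 beside 0.21 for all genes. A2M, the protease-trapping alpha-2-macroglobulin, was at 99.85 FPKM at 300 minutes against 37.08 at 0 minutes (2.65-fold higher). The complement protease gene CFB was 2.31-fold higher, and the fibronectin gene FN1 2.27-fold higher at 2469 against 1089 FPKM. HAMP, which encodes the iron hormone hepcidin, was 4.18-fold lower at 5.61 against 26.62 FPKM. FGL1, a fibrinogen-like gene, was 2.84-fold lower, and the C1 inhibitor gene SERPING1 2.25-fold lower. CRP, the pentraxin gene used as a clinical marker, was listed at 0 at 300 minutes and at 3.531 FPKM at 0 minutes. At 300 minutes against the asynchronous culture 4 of the 24 were higher and 9 lower (9.84% and 8.57% of all genes). C4A and C4B, each at 60.06 against 28.99 FPKM, were both among those 4.

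Of the 7 other negative acute phase genes, 1 was past 2-fold upwards and 5 downwards at 0 minutes against the asynchronous culture (14.1% and 19% of all genes), and their median was -2.13 beside -0.14 for all genes. At 300 minutes against that culture 0 were higher and 5 lower (9.84% and 8.57%), and the median was -2.03 beside 0.11. At 40 against 0 minutes none passed 2-fold in either direction (3.24% and 2.05% of all genes). At 80 against 40 minutes 0 were higher and 1 lower (13.5% and 2.72%). At 300 against 0 minutes 2 were higher and 0 lower (18.9% and 8.82%). ALB was at 662.2 against 127.5 FPKM (5.16-fold higher), with 2295 FPKM in the asynchronous culture, and the transferrin gene TF at 155.6 against 36.23 FPKM (4.21-fold higher), with 860.8 FPKM in the asynchronous culture. AHSG, itself a negative acute phase gene, was 1.42-fold higher in that comparison.

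Of 17 genes of interleukin 6 and interleukin 1 signalling, 3 were past 2-fold upwards and 1 downwards at 0 minutes against the asynchronous culture (14.1% and 19% of all genes), and the median was 0.26 beside -0.14 for all genes. SOCS3, the feedback inhibitor of this signalling, had 751.9 FPKM at 0 minutes, 964.0 at 40, 527.6 at 80, 546.0 at 105, 289.1 at 165 and 119.2 at 300 minutes, and 253.5 FPKM in the asynchronous culture. It was above the asynchronous level up to 165 minutes and below it at 300 minutes, when it was 6.26-fold lower than at 0 minutes. Its relative SOCS1 was 5.07-fold lower at 300 against 0 minutes, and the interleukin 6 receptor gene IL6R 2.13-fold lower at 46.56 against 100.5 FPKM. LIFR, the receptor for leukaemia inhibitory factor, was 3.88-fold higher at 404.5 against 103.6 FPKM. In all, 1 was higher and 3 lower at 300 against 0 minutes (18.9% and 8.82% of all genes). None passed 2-fold at 40 against 0 minutes (3.24% and 2.05%). At 80 against 40 minutes 2 were higher and 0 lower (13.5% and 2.72%), and at 300 minutes against the asynchronous culture 2 were higher and 4 lower (9.84% and 8.57%).

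Of 11 liver transcription factors of acute phase promoters, 2 were higher by 2-fold or more at 40 against 0 minutes and 0 were lower (3.24% and 2.05% of all genes). CEBPD, a C/EBP factor raised in the acute phase, had 80.67 FPKM at 0 minutes, 184.4 at 40, 50.61 at 80, 87.03 at 105, 89.88 at 165 and 54.23 at 300 minutes, and 43.08 FPKM in the asynchronous culture. CEBPD was thus high at 40 and low at 80 minutes, as the fibrinogen genes were, but stood above its asynchronous level at every release time. CEBPA, which keeps hepatocytes differentiated, was at 67.61 against 21.47 FPKM (3.05-fold higher), with 1702 FPKM in the asynchronous culture. At 300 against 0 minutes 2 factors were higher, CEBPA (3.57-fold) among them. The glucocorticoid receptor gene NR3C1 alone was lower, 2.63-fold, beside 18.9% higher and 8.82% lower among all genes. At 0 minutes against the asynchronous culture 1 was higher and 6 lower (14.1% and 19%). At 80 against 40 minutes 2 were higher and 1 lower (13.5% and 2.72%), and at 300 minutes against the asynchronous culture 0 were higher and 4 lower (9.84% and 8.57%).

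Of 5 other genes of the inter-alpha-trypsin inhibitor system, AMBP, which encodes bikunin and alpha-1-microglobulin, was at 665.9 FPKM at 300 minutes against 187.2 at 0 minutes (3.54-fold higher), with 1722 FPKM in the asynchronous culture. ITIH2, whose chain is joined to bikunin, was 2.12-fold lower in that comparison. TNFAIP6, whose product moves heavy chains to hyaluronan, was 2.42-fold lower at 9.748 against 24.96 FPKM. The list had 2 higher and 1 lower at 0 minutes against the asynchronous culture (14.1% and 19% of all genes). None passed 2-fold at 40 against 0 minutes (3.24% and 2.05%) or at 80 against 40 minutes (13.5% and 2.72%). At 300 against 0 minutes 1 was higher and 1 lower (18.9% and 8.82%). At 300 minutes against the asynchronous culture 0 were higher and 1 lower (9.84% and 8.57%).

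**Figure D4:**
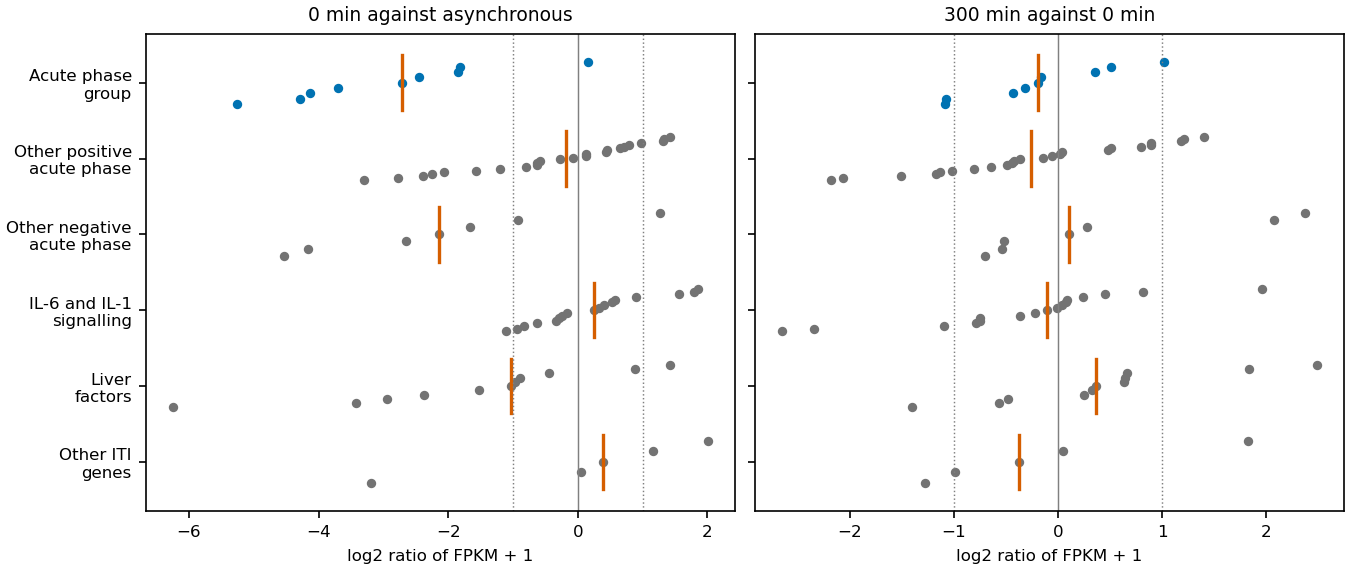
Log2 ratio of FPKM + 1 for each kept gene of 6 groups of genes at 0 minutes against the asynchronous culture (left) and at 300 against 0 minutes (right); orange bars are medians and dotted lines mark 2-fold. The acute phase group has a median of -2.71 on the left and -0.19 on the right, and the other positive acute phase genes -0.18 and -0.26.

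The 24 nearest kept genes around the acute phase loci, up to 2 on each side, were compared in the same way. At 0 minutes against the asynchronous culture 4 were past 2-fold upwards and 4 downwards, near the 14.1% and 19% of all genes, and at 80 against 40 minutes 4 were higher and 1 lower, beside 13.5% and 2.72%. Next to the fibrinogen genes, the splicing factor gene PLRG1 had 928.0 FPKM at 80 minutes against 470.2 at 40 minutes (1.97-fold higher), where FGA, FGB and FGG were lower. At 0 minutes it had 419.9 FPKM, against 664.3 FPKM in the asynchronous culture. DCHS2, beyond PLRG1, and LRAT and RBM46, on the other side of the fibrinogen genes, stood at 1.142 to 8.229 FPKM over all groups. LRAT, the nearest kept gene on that side, had a log2 ratio of -0.20 at 80 against 40 minutes. On the AHSG side, FETUB, which encodes the related fetuin-B, had 14.28 FPKM at 0 minutes and 5.351 FPKM in the asynchronous culture (2.41-fold higher at 0 minutes). HRG, which encodes histidine-rich glycoprotein, had 19.01 FPKM at 0 minutes and 12.20 FPKM in the asynchronous culture, while AHSG was 19.5-fold lower. ITIH5, next to ITIH2, was 2.23-fold higher in that comparison, where ITIH2 was 17.6-fold lower.

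Profiles over the 7 groups were compared with 14907 protein-coding genes of at least 10 FPKM in their highest group. The mean fibrinogen profile was most like those of SPARCL1 (r = 0.985), BANK1 (0.983), MYO1E (0.981), DGKG (0.975) and R3HDM2 (0.975). MYO1E, an unconventional myosin gene, had 177.6 FPKM at 0 minutes, 198.9 at 40, 137.5 at 80, 128.4 at 105, 134.4 at 165 and 179.2 at 300 minutes, and 295.5 FPKM in the asynchronous culture. Among the genes most like AHSG were ADAM22 (0.998), ADAM23 (0.996), EXOC6 (0.995) and NAV3 (0.995). All of the genes named here have their highest value in the asynchronous culture, a single point that weighs on r, and their highest values were fewer times their lowest than in FGA and AHSG.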

How the data were processed

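EU-labelled RNA of HUH7 cells was sequenced from stranded libraries depleted of ribosomal RNA, per the labels' protocols. The authors deposited FPKM for RefSeq transcripts in 1 pooled column for each of 7 groups, per the file headers; bcl2fastq, Bowtie2 2.2.9, TopHat, bedtools and hg19 are named in the submitters' processing notes. How reads were counted, whether strand was used, the read total behind FPKM, any background subtraction and the pooling are not stated in these sources. The sum of FPKM times gene span, which would be equal in all groups had FPKM been scaled to the reads over these spans, differed between groups.

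Of 48205 transcripts, 47127 matched a symbol in a RefSeq table (GRCh38.p14), giving 24242 genes, and the 22940 that reached 1 FPKM in 3 groups or more were kept. Ratios were taken on log2(FPKM + 1), a scale that shrinks differences between low values. With 1 value per group the planned limma test could not be run, and the size of the difference was described against all kept genes. Scripts were tested on simulated data. Low values were multiples of a step (39.2% to 44.6% within 0.05 of a whole step, 10% if even). If a step is 1 read and FPKM were scaled to depth, step size gave the depth relative to 0 minutes. It was 1.15 to 1.75 at later times and 1.87 in the asynchronous culture. Reads taken from steps cover counting alone and are not independent molecules.

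The 10 genes, the gene lists and the motifs were chosen with earlier results of these data known. The genes named besides the 10 were list genes at least 2-fold apart at 40 or 300 against 0 minutes (at most 4 per list and direction), the 2 kept genes on each side of a locus, and the 5 most like profiles for fibrinogen and for AHSG; single cell type markers, APCS, AGT, C4A and C4B are named outside that rule. Results of a few items that met the rule, and 1 motif, are not reported here. Alternatives were pseudocounts of 0.1 and 10, other ways to join transcripts, equal medians, quantile normalization, other filters and, added after the data were seen, equal sums of FPKM times gene span. Python 3.11.15, numpy 2.4.6, pandas 2.3.3, matplotlib 3.10.9 and Biopython 1.88 were used.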

Additional observations from a re-analysis of the deposited data

How the results depend on the processing

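The counts of acute phase genes past 2-fold were recomputed under 9 alternatives, 90 values in all, of which 83 stayed within 1.5 times the reported count. The 7 others were small counts. At 40 against 0 minutes the count of genes at least 2-fold higher was 0 after quantile normalization and 0 with equal sums of FPKM times gene span, against 1 (FGA) as reported. At 300 against 0 minutes the count of higher genes was 0 with a pseudocount of 10, 0 with equal medians and 0 with equal sums, against 1 (ORM2), and that of lower genes 0 with a pseudocount of 10 and 1 with the filter at 10 FPKM, against 2 (HP and ITIH2). HP and ITIH4 do not pass that filter, and for the other 6 the cause was not tested. The other ways to join transcripts could alter only FGA and FGG, which have more than 1 distinct set of values. Leaving out the filter added only ITIH3. The 83 values therefore include some that had little room to move. No ratio past 2-fold changed sign; of 774 values for single genes, 40 crossed 2-fold or changed sign below it.

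Scaling moved the median and the split of all genes. At 0 minutes against the asynchronous culture the median log2 ratio of all genes was -0.14 as deposited, 0.19 with equal medians, 0.01 after quantile normalization and 0.53 with equal sums, and the share of higher genes among those past 2-fold was 42.7%, 68.1%, 50.1% and 84.9%. At 300 against 0 minutes the median was 0.21, -0.14, -0.02 and -0.40 and that share 68.2%, 34.8%, 49.6% and 17.3%. At 80 against 40 minutes the median was 0.18, -0.09, -0.04 and -0.17 and the share 83.2%, 59%, 56.6% and 50.4%; at 40 against 0 minutes equal sums brought the share to 46.7% from 61.3%. Leaving out replicates was not run, since the table has no column per library. No paired analysis was possible because the columns carry no replicate. Depth limits HP, ORM2 and ITIH3, whose release values come to about 4 to 16, 7 to 37 and 1 to 4 steps.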
